A study of Mus musculus with 6 samples.

Results

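The guanylate-binding protein (GBP) genes Gbp2, Gbp3, Gbp4, Gbp5, Gbp6 and Gbp7 and the immunity-related GTPase (IRG) genes Irgm1, Irgm2, Igtp and Iigp1 were examined for chromatin accessibility in mouse leukaemia cells. A peak, that is a stretch of DNA cut often by the transposase in ATAC-seq, was taken for a gene where the deposited table named that gene as the nearest and the peak lay within 100000 bp of its transcription start site (TSS). Of 175929 peaks, 65 met this rule, and they belonged to 8 of the 10 genes. Irgm1 held 25 of them, Irgm2 13, Gbp5 9, Gbp2 7, Gbp7 4, Igtp 3, Gbp3 2 and Iigp1 2, whereas no peak was assigned to Gbp4 or Gbp6.

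The cells were Usp18+/f UBCER-Cre AE9a leukaemia cells. Each library therefore carried 1 floxed Usp18 allele, a Cre recombinase driven by the ubiquitin C promoter that tamoxifen activates, and the AML1-ETO9a oncogene, which had been put into fetal liver cells by a retrovirus that also encodes GFP. The leukaemia was transplanted into sub-lethally irradiated C57BL/6 mice, which were injected with oil or with tamoxifen once they were sick. Splenocytes that were GFP+ Lin- c-Kit+, that is without lineage markers and with the stem cell factor receptor, were sorted on day 3 counted from the first injection. The oil group (Usp18+/f, replicates 1, 2 and 4) was compared with the tamoxifen group (1 Usp18 allele to be deleted, replicates 1, 3 and 4). No group had tamoxifen without the floxed allele or without Cre, so that the drug, the recombinase and the loss of the allele cannot be told apart. Whether the 3 libraries of a group were made from separate mice is not stated in the labels, and the methods are not clear on it, since one passage speaks of mice per group and another of biological duplicates. Each n here counts libraries, and p-values measure only the spread between them.

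GBPs are large GTPases that interferons induce, and they assemble on the membranes of vacuoles that hold microbes and on bacteria in the cytosol. IRG proteins are smaller GTPases of the same defence. Iigp1 belongs to the effectors that load onto such vacuoles, and Irgm1, Irgm2 and Igtp regulate the effectors and guard the cell's own membranes. Promoters of both families are known for 2 kinds of element, the interferon-stimulated response element (ISRE), bound by IRF proteins, and the gamma-activated site (GAS). Usp18 restrains signalling from the type I interferon receptor and removes the ubiquitin-like protein ISG15 from other proteins.

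RefSeq promoter windows (build GRCm38.p6, 250 bases before to 50 after a start) were matched for 7 of the genes, Gbp2, Gbp3, Gbp5, Gbp7, Irgm1, Irgm2 and Igtp, with 2 windows for Gbp3. The 170 bases before the start of each gene are shown in the direction of transcription because they hold the ISRE cores of the genes. Capitals mark an ISRE core (GAAANNGAA) or a GAS (TTCNNNGAA) on either strand.
Gbp2, chr3:142620493-142620662, strand +: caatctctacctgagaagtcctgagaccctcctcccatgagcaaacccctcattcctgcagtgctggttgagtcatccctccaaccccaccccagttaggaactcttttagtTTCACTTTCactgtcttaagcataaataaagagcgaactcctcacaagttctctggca
Gbp3, chr3:142559874-142560043, strand +: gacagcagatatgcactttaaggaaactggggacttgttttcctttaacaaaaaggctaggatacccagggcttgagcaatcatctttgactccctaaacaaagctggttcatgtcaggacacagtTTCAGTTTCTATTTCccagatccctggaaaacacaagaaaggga
Gbp5, chr3:142496764-142496933, strand +: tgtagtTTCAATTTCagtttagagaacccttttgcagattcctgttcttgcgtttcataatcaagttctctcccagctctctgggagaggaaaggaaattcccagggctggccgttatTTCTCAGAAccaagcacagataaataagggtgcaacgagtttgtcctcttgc
Gbp7, chr3:142530166-142530335, strand +: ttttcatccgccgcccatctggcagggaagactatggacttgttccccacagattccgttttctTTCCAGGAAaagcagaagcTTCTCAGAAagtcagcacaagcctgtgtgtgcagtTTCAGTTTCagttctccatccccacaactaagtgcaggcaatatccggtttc
Irgm1, chr11:48871421-48871590, strand -: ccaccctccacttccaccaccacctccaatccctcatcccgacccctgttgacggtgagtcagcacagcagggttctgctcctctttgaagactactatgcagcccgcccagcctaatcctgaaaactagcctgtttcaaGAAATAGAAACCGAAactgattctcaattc
Irgm2, chr11:58214807-58214976, strand +: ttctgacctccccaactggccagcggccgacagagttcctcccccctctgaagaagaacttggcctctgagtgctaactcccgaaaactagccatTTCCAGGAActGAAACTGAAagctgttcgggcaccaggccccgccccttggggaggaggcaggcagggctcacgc
Igtp, chr11:58199386-58199555, strand +: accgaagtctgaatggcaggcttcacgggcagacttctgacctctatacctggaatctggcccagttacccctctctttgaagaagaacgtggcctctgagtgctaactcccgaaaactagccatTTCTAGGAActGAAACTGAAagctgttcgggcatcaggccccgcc

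The ISRE core was present in at least 1 window of all 7 genes, against 8.56% of 32851 RefSeq promoters. The stricter ISRE form GAAACNGAA was found at Gbp3, Gbp7, Irgm1, Irgm2 and Igtp, against 1.88% of promoters. A GAS lay in the windows of Gbp5, Gbp7, Irgm2 and Igtp, against 8.30%, and the stricter GAS form TTCCNGGAA in those of Gbp7 and Irgm2, against 1.15%. Both strands were searched, and matches of the 2 motif kinds did not share bases in these windows except where a run of capitals above joins 2 ISRE cores. In Irgm2 the GAS ran from -75 to -67 and the ISRE core from -64 to -56, counted from the start, and in Igtp the same pair ran from -45 to -37 and from -34 to -26. In Irgm1 a pair of overlapping ISRE cores covered -30 to -16, and in Gbp3 a like pair covered -44 to -30. The Gbp2 core lay at -58 to -50 and the Gbp7 core at -52 to -44. A match is a run of letters and was not tested for binding.

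Some of these genes are near copies of each other, which limits how tags can be assigned. The peak at the Igtp start was 97.1% identical over 98.6% of its length to sequence at the Irgm2 start, the highest likeness of any member peak to another place in the genome. A second such window concerned Gbp4. The 300 bases around its start were 95.4% identical over their full length to sequence at the start of its neighbour Gbp9. The best match of the Gbp6 start window reached 85.5% over 45.3% of its length. Both Iigp1 peaks also had near copies, which missed the limits of 95% identity over 90% of the length and are given with their tags below. How the authors' mapping placed reads that match more than 1 site is not stated beyond default settings.

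Across the 65 peaks, 32 lay within 3000 bp of a TSS and 33 farther away, and the farthest was 28094 bp from the Irgm2 start. By the authors' annotation 34 peaks were intergenic, 14 lay at a promoter, 12 in an intron, 2 at a transcription end, 2 in a 5′ UTR and 1 in a 3′ UTR. A pair of the Gbp2 peaks, at -1886 and -1254 bp, lay at the 3′ UTR and the transcription end of the neighbouring gene, Gbp2b. The authors had called peaks per group, and 50 of the 65 (76.9%) were in both lists, against 71.4% of all peaks, with 8 in the oil list only and 7 in the tamoxifen list only. Repeats were named in the annotation of 13 of the 65 (20.0%), against 22.5% of all peaks. The median width was 234 bp (201 to 583 bp).

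Each library held 57.4 M to 74.7 M tags, of which 17.5 M to 21.1 M lay in peaks, and the median peak held 45.0 to 57.0 tags. Over all peaks, the chi-square of a pair of libraries, divided by its degrees of freedom, was 1.04 to 1.23 among oil libraries and 1.50 to 2.72 among tamoxifen libraries, so that the tamoxifen group was the more variable. Tags summed over the 15 peaks of Usp18 ran from 1714 to 1787 after oil and from 1714 to 1768 after tamoxifen. Which exons the floxed allele loses is not given in the sources used here, so this level does not check the deletion. Among markers of the sorted cells, peaks within 3000 bp of a TSS were present for Kit, Cd34, Myb, Spi1 and Runx1 and not for Ptprc. Cd34, a marker of stem and progenitor cells, had 1 such peak, with 73.9, 92.6 and 117 tags after oil and 265, 333 and 212 after tamoxifen (log2 change 1.50, SE 0.188, DESeq2 adjusted p = 8.32e-12). Peaks were listed for 1 of 6 T and NK cell genes (Cd3e), 2 of 5 B cell genes, 4 of 5 erythroid genes, 5 of 7 mature myeloid genes and 3 of 5 non-blood genes. Erythroid marker tags ran from 5433 to 5657 after oil and from 4967 to 5289 after tamoxifen, and mature myeloid marker tags from 1785 to 1869 and from 1883 to 2011. These 2 sums were the ones among the marker lists whose groups did not overlap. Among single marker genes, Cd34, Cdh5 and Epcam were higher in every tamoxifen library than in every oil library, and Myb and Epor were lower. The part of these markers in the results below was not tested.

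To see how open each locus was, tags were divided by a size factor per library, summed over the peaks of a gene and expressed per kb of peak. In the oil group Gbp3 had the highest level, with 630.5 tags per kb in oil 1, 620.3 in oil 2 and 621.5 in oil 4. Irgm1 followed with 576, 603 and 591. The ranges of these leading genes did not meet in the oil group, but in the tamoxifen group they did, at 532 to 611 for Gbp3 and 491 to 576 for Irgm1. Gbp5 (376 to 384 after oil), Gbp7 (357 to 371), Irgm2 (330.5 to 360.2) and Igtp (295 to 331) came next. Gbp7 overlapped Irgm2 and Irgm2 overlapped Igtp, so that their order was not set beyond the spread of the libraries. Gbp2 had 253 to 272 tags per kb, and Iigp1 was the least open with 87.6 to 136. Irgm1, with 25 of the 65 peaks, held 54.9% of all member tags in the oil group.

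**Figure D1:**
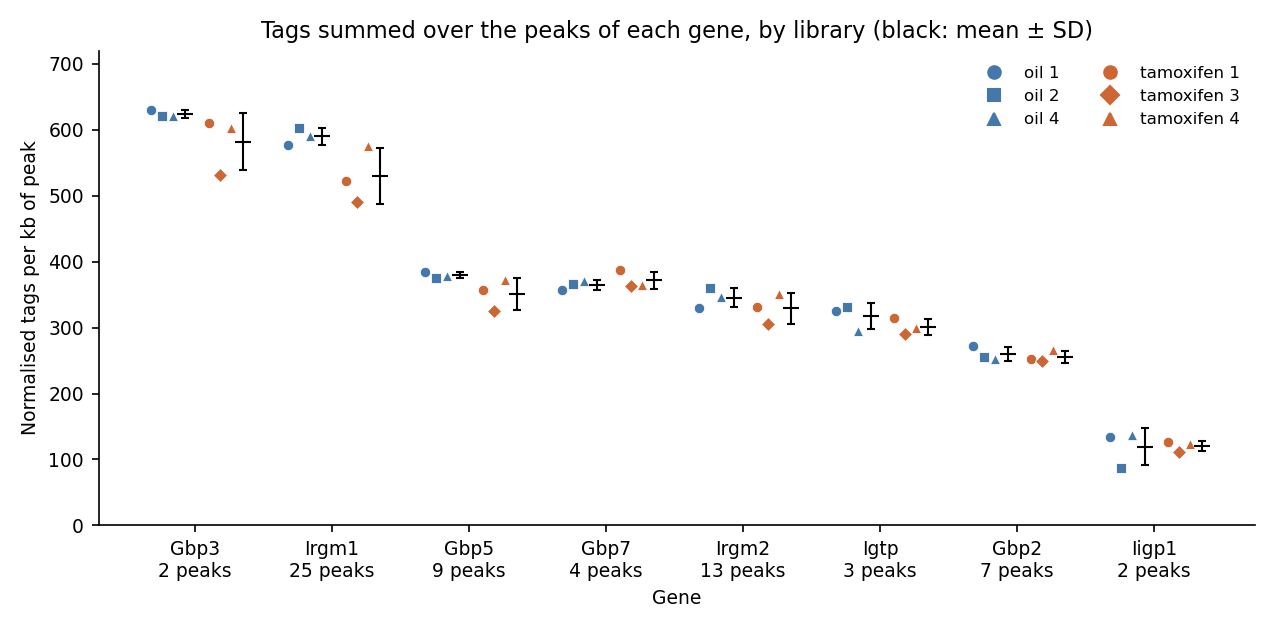
Normalised tags per kb of peak (vertical axis), summed over the peaks of each of the 8 genes with a peak, ordered by the mean level after oil; each symbol is 1 library, and black bars give mean ± SD (n = 3). Tamoxifen replicate 3 is the lowest of the tamoxifen symbols at every gene, and at Gbp3, Irgm1 and Gbp5 all tamoxifen symbols sit below all oil symbols. How often such a gap arises over all genes was not counted, so that it cannot be called particular to these genes.

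The comparison of tamoxifen with oil asks whether accessibility at these interferon-induced loci differed after a treatment meant to delete 1 Usp18 allele. DESeq2 was fitted to all 175929 peaks, and calling required an adjusted p under 0.05 together with a change of more than 2-fold. None (0) of the 65 peaks was called, against 0.654% of all peaks, and none (0) had an adjusted p under 0.05, against 1.39%. The smallest adjusted p of a member was 0.0694. At an unadjusted p under 0.05, 2 members were higher after tamoxifen, against 6.18% of all peaks, and 3 were lower, against 2.84%. With edgeR, 1 member had an adjusted p under 0.05, against 2.92% of all peaks. At 53 of the 65 peaks the 95% interval of the change excluded a fold of 2 in either direction, as it did at 75.7% of all peaks. In bulk cells, fewer cells with a site open and less opening per cell cannot be told apart.

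The changes were small and leaned downward. The log2 change was below 0 at 42 of the 65 peaks (64.6%) and above 0 at 23, and the median was -0.09, whereas over all peaks 50.3% lay below 0 with a median of 0.00. By gene, the peaks below 0 were 18 of 25 at Irgm1, 8 of 9 at Gbp5, 7 of 13 at Irgm2 and 3 of 7 at Gbp2. They were 2 of 3 at Igtp, 2 of 2 at Gbp3, 1 of 4 at Gbp7 and 1 of 2 at Iigp1. Neighbouring peaks of a gene were counted singly. All 3 tamoxifen libraries lay below all 3 oil libraries at 12 members, against 10.0% of all peaks, and above them at 2, against 11.9%. The lean was not even across libraries. Tamoxifen 3 was the lowest of the 6 libraries at 27 members (41.5%), against 22.1% of all peaks, whereas tamoxifen 4 was the lowest at 5 members (7.69%). Peaks within 3000 bp of a TSS had a median of -0.11 and those farther away a median of -0.05. Against peaks of like level, 62 of the 65 changes lay inside the central 95% of all peaks, 2 below it, both at Irgm1, and 1 above it, at Gbp7.

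**Figure D2:**
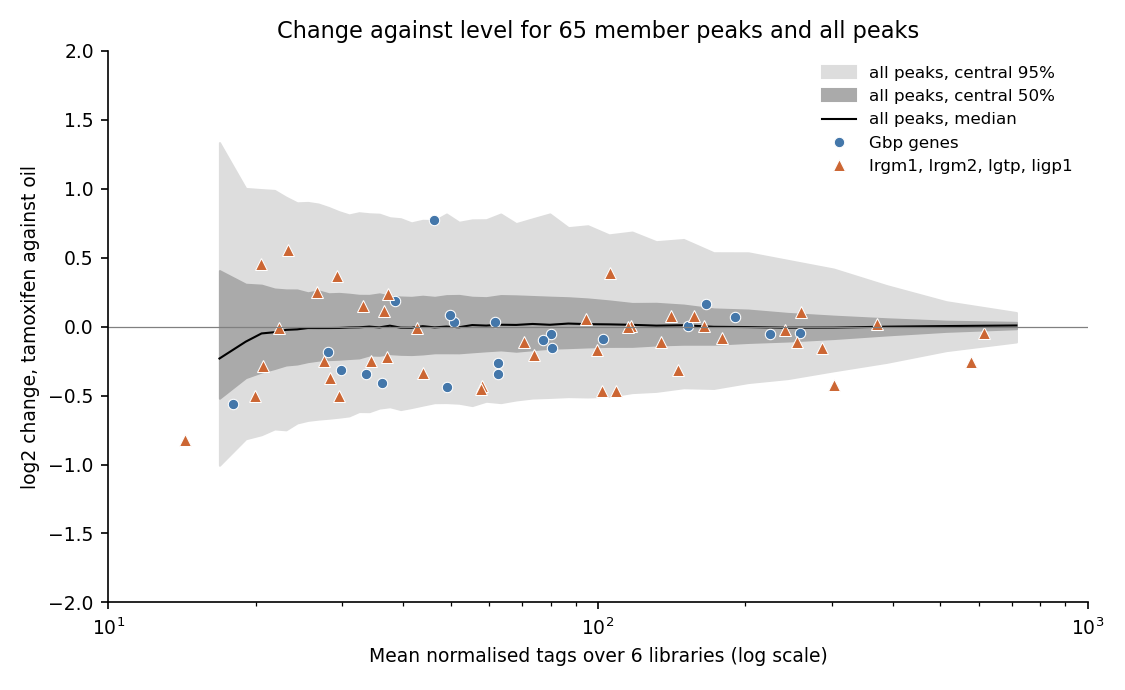
log2 change of tamoxifen against oil (vertical axis) against mean normalised tags over the 6 libraries (log axis) for the 65 member peaks, Gbp genes as circles and IRG genes as triangles. Grey bands hold the central 95% and 50% of all peaks in 40 bins of level, drawn from the median level of the lowest bin, and 62 of the 65 members lie inside the wider band.

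At the starts of the genes no peak passed the threshold. For Gbp2, a GBP found on vacuoles that hold parasites, the peak at -97 bp (chr3:142620455-142620678) held 68.4, 72.2 and 64.1 normalised tags after oil and 59.0, 47.9 and 62.9 after tamoxifen. For Gbp3 the peak at -258 bp (chr3:142559647-142559926) held 38.1, 40.5 and 33.6 after oil and 28.0, 29.5 and 31.2 after tamoxifen. At both genes every tamoxifen library was below every oil library. The log2 change was -0.26 (SE 0.241, adjusted p = 0.879, DESeq2) at Gbp2 and -0.34 (SE 0.323, adjusted p = 0.887) at Gbp3, so that the shift was smaller than 1.5 times its error. The other Gbp3 peak, at +432 bp, was far more open per kb (1269 against 133 tags per kb after oil). It held 269, 259 and 260 tags after oil and 271, 235 and 259 after tamoxifen, and its groups overlapped.

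Gbp5, which promotes assembly of the NLRP3 inflammasome, had a peak at -80 bp (chr3:142496649-142497059) with 86.0, 77.0 and 77.1 tags after oil and 76.4, 66.9 and 79.6 after tamoxifen. The groups overlapped, and the log2 change was -0.10 (SE 0.216, adjusted p = 0.979, DESeq2). Gbp7, for which the central 200 bp of the start peak held both motifs, had 146, 157 and 155 tags after oil and 139, 155 and 166 after tamoxifen at -24 bp (chr3:142530210-142530415). Here the means were alike, at 153 ± 5.77 and 153 ± 13.6 (SD, n = 3), and the log2 change was 0.01 with a 95% interval from -0.30 to 0.32.

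Among the regulatory IRG genes, the Irgm1 start peak at -22 bp (chr11:48871289-48871595) was the most open of the start peaks at 814 tags per kb after oil. It held 253, 264 and 233 tags after oil and 259, 276 and 270 after tamoxifen. Its log2 change was 0.10 (SE 0.1244, adjusted p = 0.936, DESeq2), with overlapping groups. The Irgm2 start peak at -34 bp (chr11:58214837-58215049) held 124.6, 162.8 and 124.1 tags after oil and 137, 165 and 132 after tamoxifen. The spread within each group, with SDs of 22.2 and 17.6, was wider than the difference of the means, and the log2 change was 0.08 (SE 0.175).

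For Igtp (also Irgm3), the start peak at -2 bp (chr11:58199451-58199658) held 156, 159 and 144 tags after oil and 173, 160 and 150 after tamoxifen. Tamoxifen 1 was highest and oil 4 lowest, and the groups overlapped, with a log2 change of 0.07 (SE 0.155). Since the Igtp and Irgm2 start peaks are the near-identical pair, a tag at one cannot be assigned to its gene with certainty. The 2 weaker Igtp peaks, at -1394 and -707 bp, had log2 changes of -0.82 (SE 0.505) and -0.50 (SE 0.426). The first had a mean of 18.3 tags after oil and of 10.3 after tamoxifen, and both intervals included 0.

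Iigp1 (also Irga6), an effector that coats the parasite vacuole, had no peak within 3000 bp of the TSS that the authors' annotation gives. Its nearest peak, at +6602 bp (chr18:60382520-60382742), lay 52 bp before another Iigp1 start in GENCODE and its central 200 bp held both motifs. It had 35.9, 16.6 and 25.5 tags after oil and 29.5, 34.0 and 36.3 after tamoxifen. The groups overlapped, and the log2 change of 0.37 (SE 0.365, adjusted p = 0.899, DESeq2) had an interval from -0.35 to 1.08 that does not exclude a fold of 2. The second Iigp1 peak, at -7025 bp (chr18:60366434-60366748), held 36.4, 30.2 and 45.7 tags after oil and 38.7, 27.3 and 28.9 after tamoxifen, also with overlap (log2 change -0.25, SE 0.331). The peak at +6602 bp was 94.3% identical over its full length to sequence elsewhere on chromosome 18. The peak at -7025 bp was 96.7% identical over 78.1% of its length to another site there. Tags at either peak therefore cannot be assigned to Iigp1 with certainty.

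**Figure D3:**
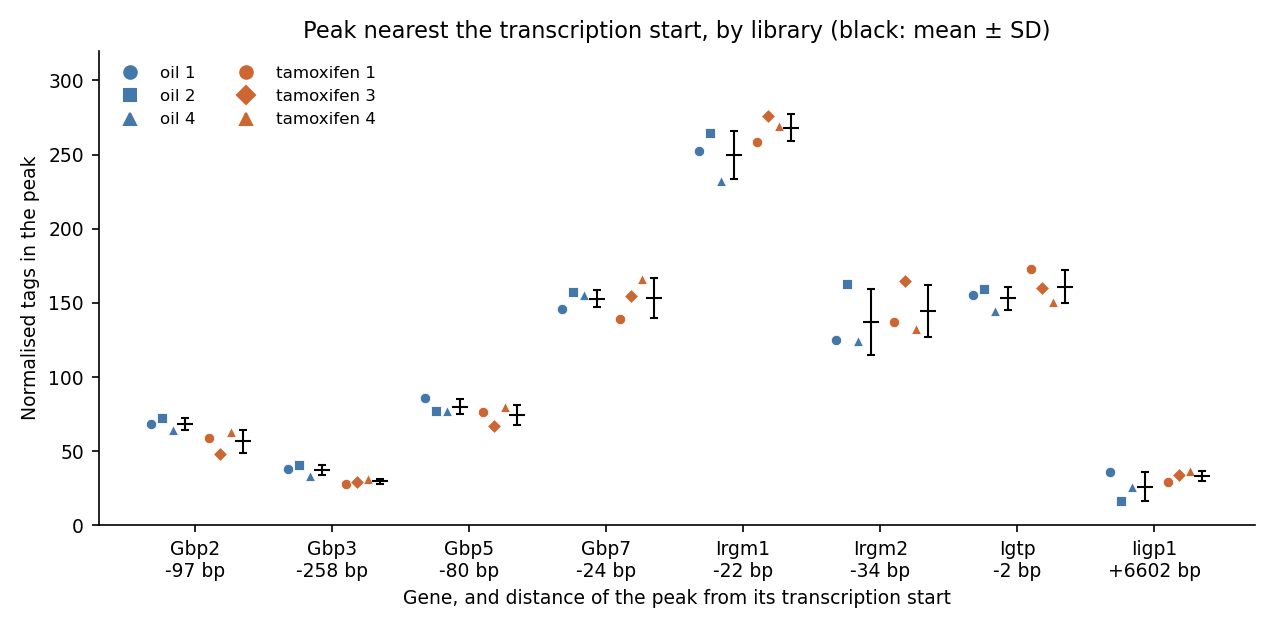
Normalised tags (vertical axis, from 0) in the peak nearest the start of each of the 8 genes, with its distance from that start under the gene name; symbols are libraries and black bars give mean ± SD (n = 3). Oil and tamoxifen symbols overlap at 6 genes and lie apart, with tamoxifen lower, at Gbp2 and Gbp3.

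In the central 200 bp of the peaks, an ISRE core was found at 12 of the 65 members (18.5%), against 5.13% of all peaks on named chromosomes, and a GAS at 7 (10.8%), against 4.86%. Within 3000 bp of a TSS 9 of 32 member peaks held an ISRE core, and farther away 3 of 33 did. The 12 peaks with the core had a median log2 change of 0.02, with 7 above 0 and 5 below, and the 53 without it a median of -0.11. Over all peaks with the core 4506 lay above 0 and 4507 below, and the difference between members with and without it was not tested.

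The smallest p-values among the members came from sites away from the starts. At Irgm1, a group of 10 intergenic peaks lay from 2667 to 7427 bp past the 3′ end of the gene (chr11:48854541-48859301), where the next start in GENCODE is that of the antisense RNA gene Gm16170. This stretch of 4761 bp held 58.2 to 59.6% of the Irgm1 tags in the oil libraries and 57.4 to 59.2% in the tamoxifen libraries. Its summed tags were 2367, 2519 and 2375 after oil and 2163, 2094 and 2306 after tamoxifen. Every tamoxifen library was below every oil library, with tamoxifen 4 nearest to the oil group. The stretch was not set by a rule and holds 3 of the 5 member peaks with an unadjusted p under 0.05 (DESeq2). Its sum is therefore not separate from those peaks, and how often such sums lie apart elsewhere was not counted.

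Of these 10 peaks, the one at +13282 bp (chr11:48857951-48858325) held 358, 342 and 342 tags after oil and 253, 216 and 305 after tamoxifen. Its mean was 347 ± 9.19 after oil and 258 ± 44.9 after tamoxifen (SD, n = 3), and no tamoxifen library reached the oil range. The log2 change was -0.42 (SE 0.13, 95% interval from -0.68 to -0.17, DESeq2 adjusted p = 0.0694). It passed with edgeR (adjusted p = 0.0266) and without tamoxifen 4 (DESeq2 adjusted p = 0.00135, log2 change -0.56), and with neither was the fold over 2. Over the alternatives run, its adjusted p ranged from 0.00135 to 1.00.

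The peak at +16364 bp (chr11:48854928-48855185), annotated to an ERVL long terminal repeat, held 119.7, 137 and 124.1 tags after oil and 93.8, 72.4 and 107 after tamoxifen. The peak at +13627 bp (chr11:48857692-48857895), annotated to a B1 SINE, held 123.5, 125.8 and 105.7 after oil and 85.5, 71.9 and 98.7 after tamoxifen. In both, tamoxifen lay wholly below oil, with a log2 change of -0.47 (SE 0.194, adjusted p = 0.336, DESeq2) and of -0.47 (SE 0.198, adjusted p = 0.351). At the other 7 peaks of the stretch the groups overlapped. The peak beside the first of these, at +16741 bp (chr11:48854541-48854818), had a like mean change, from 66.9 ± 9.86 to 49.2 ± 14.7 tags (SD, n = 3), with a log2 change of -0.43 (SE 0.269, adjusted p = 0.713, DESeq2). The distal peak with the most tags on chromosome 11, at +14466 bp (chr11:48856773-48857135), held 621, 641 and 613 tags after oil and 614, 588 and 611 after tamoxifen (log2 change -0.05, SE 0.0861). The adjoining peak at +14767 bp, annotated to a valine tRNA gene, held 369 ± 10.5 and 374 ± 19.0 tags (SD, n = 3).

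**Figure D4:**
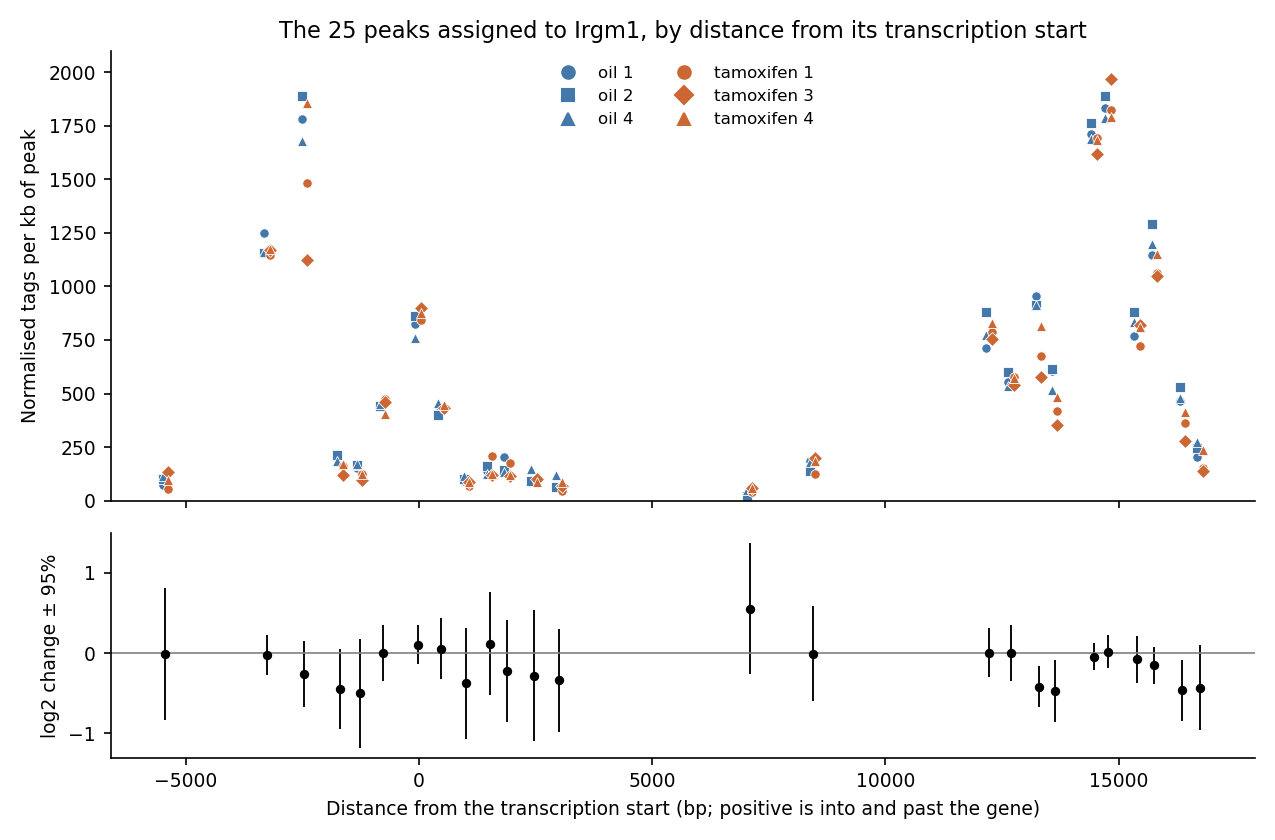
The 25 Irgm1 peaks by distance from the Irgm1 start in bp (horizontal axis): above, normalised tags per kb of peak in each library (oil and tamoxifen symbols shifted slightly apart), and below, the DESeq2 log2 change with its 95% interval. The group of 10 peaks beyond 12000 bp holds peaks above and below the level of the start, and the intervals of 3 of them, at +13282, +13627 and +16364 bp, lie below 0.

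Upstream of Irgm1, the peak at -2454 bp (chr11:48873698-48874050) held the most tags of all members after oil. The values were 628, 666 and 593 tags after oil and 523, 396 and 656 after tamoxifen. Tamoxifen 3 was far below the rest and tamoxifen 4 was inside the oil range, so that the groups overlapped and the log2 change was -0.26 (SE 0.208, adjusted p = 0.839, DESeq2). Without tamoxifen 4 it was -0.45 with an adjusted p of 0.0043.

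The 2 peaks with an unadjusted p under 0.05 that were higher after tamoxifen lay at Gbp7 and Irgm2. The Gbp7 peak, in intron 1 at +3158 bp (chr3:142533374-142533615), is annotated to an L1 repeat and held 43.0, 36.1 and 23.7 tags after oil and 74.4, 65.2 and 35.8 after tamoxifen. Tamoxifen 4 was below oil 1 and oil 2, and the log2 change was 0.77 (SE 0.327, adjusted p = 0.351, DESeq2). Without tamoxifen 4 it was 1.04 with an adjusted p of 0.033, the single setting in which a member was called. The Irgm2 peak at -3833 bp (chr11:58211026-58211263) held 80.5, 94.6 and 98.6 tags after oil and 128, 125 and 108 after tamoxifen. Its groups did not overlap, and the log2 change was 0.39 (SE 0.19, adjusted p = 0.502, DESeq2). On chromosome 3 the distal peak with the most tags was the Gbp5 peak at -3270 bp (chr3:142493561-142493767), 314 bp before another Gbp5 start in GENCODE, with 225, 232 and 227 tags after oil and 203, 212 and 245 after tamoxifen (log2 change -0.05, SE 0.135).

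The sequences of the Irgm1 and Gbp7 peaks with the smallest p among the members that were lower and higher are given in mm10, the first as its central 300 bases and the second whole. Neither held an ISRE core or a GAS, so no letters are in capitals.
Irgm1 downstream peak, chr11:48857989-48858288, strand +: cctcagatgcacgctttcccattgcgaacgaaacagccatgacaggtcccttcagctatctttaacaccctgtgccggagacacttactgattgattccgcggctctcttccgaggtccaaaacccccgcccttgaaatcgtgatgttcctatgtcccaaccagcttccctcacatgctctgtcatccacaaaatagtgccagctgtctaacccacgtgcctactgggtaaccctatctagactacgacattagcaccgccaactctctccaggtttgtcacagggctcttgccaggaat
Gbp7 intron peak, chr3:142533374-142533615, strand +: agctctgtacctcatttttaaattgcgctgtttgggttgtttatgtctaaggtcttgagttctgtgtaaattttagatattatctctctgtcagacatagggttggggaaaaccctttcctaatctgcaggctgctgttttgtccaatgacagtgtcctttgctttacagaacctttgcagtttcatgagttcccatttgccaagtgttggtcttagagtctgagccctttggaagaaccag

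**Figure D5:**
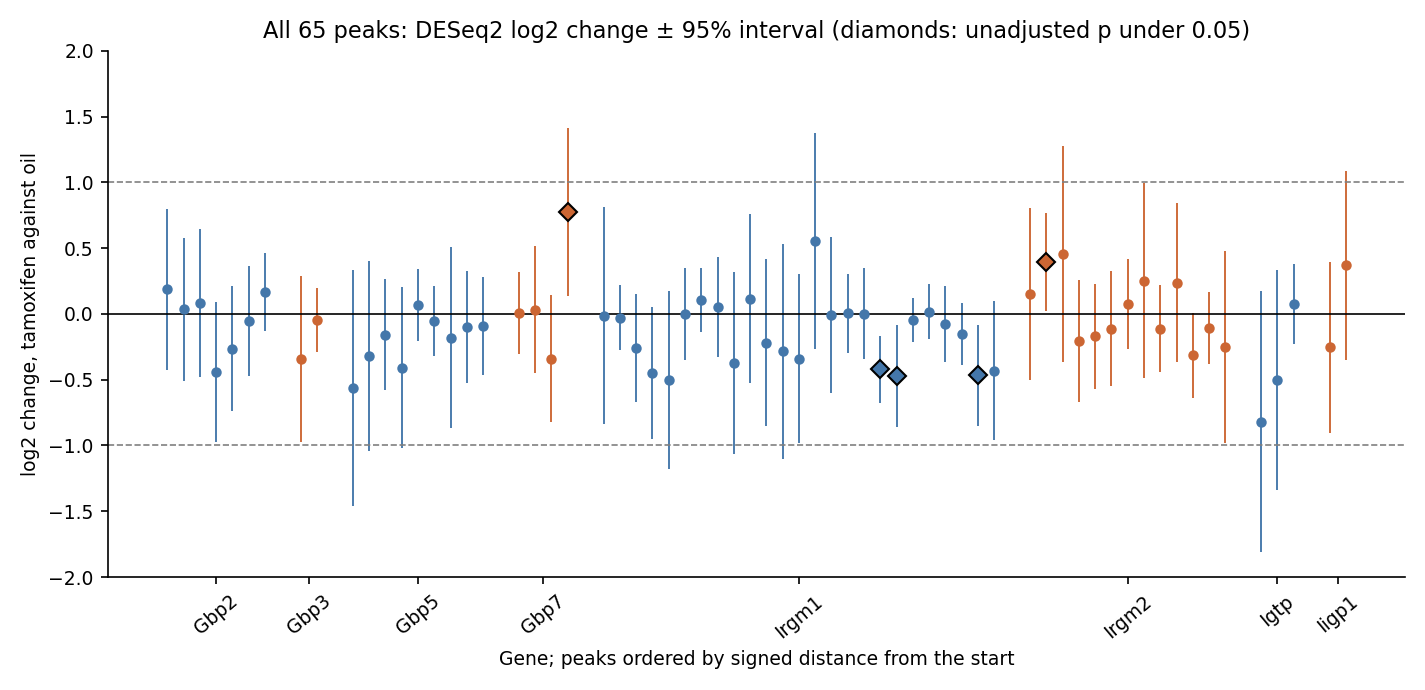
DESeq2 log2 change of tamoxifen against oil with its 95% interval (vertical axis) for all 65 peaks, grouped by gene and ordered by signed distance from the start; colours only separate neighbouring genes, diamonds mark an unadjusted p under 0.05, and dashed lines mark a fold of 2. The 5 diamonds are 3 peaks at Irgm1 below 0 and 1 peak each at Gbp7 and Irgm2 above 0.

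Summing tags over the peaks of a gene gave 1 value per gene, tested with DESeq2 over 19781 genes. None (0) of the 8 genes had an adjusted p under 0.05, against 6.0% of all genes, and 1, Irgm1, had an unadjusted p under 0.05, against 17.8%. Irgm1 held 4072, 4256 and 4175 tags after oil and 3688, 3470 and 4069 after tamoxifen, with tamoxifen 4 just under the oil range. The means were 4168 ± 92.6 and 3742 ± 303 (SD, n = 3). The log2 change was -0.15 (SE 0.0614, DESeq2 adjusted p = 0.1244). Without tamoxifen 4 it was -0.22 with an adjusted p of 0.000469.

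Gbp3 and Gbp5 also had all tamoxifen sums below all oil sums, at 259 to 297 against 302 to 307 tags for Gbp3 and at 704 to 805 against 814 to 832 for Gbp5. Their log2 changes were -0.10 (SE 0.119) and -0.11 (SE 0.0815), and both intervals included 0. How often all tamoxifen sums lie on 1 side of all oil sums was not counted over all genes. The gap at these genes therefore cannot be called particular to them. Gbp2, Gbp7, Irgm2, Igtp and Iigp1 overlapped between groups, with log2 changes from -0.07 to 0.03. For all 8 genes the 95% interval excluded a fold of 1.5 in either direction, as it did for 80.5% of all genes.

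Gbp4 and Gbp6, on the chromosome 5 cluster, had no assigned peak. The single peak within 100000 bp of the Gbp4 starts was at the start of Gbp9 (chr5:105110186-105110394), 29250 bp from the nearest Gbp4 start, and none lay within that distance of the Gbp6 starts. It held 9.38, 4.39 and 6.27 normalised tags after oil and 24.6, 23.95 and 16.3 after tamoxifen. Every tamoxifen library was above every oil library, with a log2 change of 1.82 (SE 0.548, adjusted p = 0.0599, DESeq2). It passed with edgeR (adjusted p = 0.00925) and in DESeq2 without tamoxifen 4 (adjusted p = 0.0275), whereas DESeq2's filter on low means left it without an adjusted p in the other 5 fits that left out 1 library. The peak is 94.8% identical over its full length to sequence at the Gbp4 start (chr5:105139460-105139668), so that its tags cannot be assigned to 1 gene with certainty. It was described because of its place beside Gbp4, with its values known.

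Other genes of the 2 families (17 listed) had 54 peaks at 9 genes, and 1 peak was called, against 0.654% of all peaks. It lay at -7724 bp from the start of Irgc1 (chr7:24453199-24453613), an IRG gene known for expression in testis rather than for induction by interferon. It held 36.4, 35.6 and 34.9 tags after oil and 96.7, 85.2 and 79.6 after tamoxifen, a log2 change of 1.30 (SE 0.252, adjusted p = 0.000119, DESeq2). The start peak of Ifi47 (also Irg47), an interferon-induced IRG gene beside Irgm1, held 51.3, 69.7 and 77.5 tags after oil and 106, 128 and 83.3 after tamoxifen. Its groups did not overlap, but the log2 change of 0.67 (SE 0.229) had an adjusted p of 0.146. Another of the 16 Ifi47 peaks, at +2944 bp, lay the opposite way, also without overlap. It held 51.8, 50.2 and 60.9 tags after oil and 21.3, 28.4 and 48.0 after tamoxifen (log2 change -0.72, SE 0.317, DESeq2 adjusted p = 0.393). Ifi47 and the genes named in the next paragraph other than Jak1 were chosen with their values known.

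Interferon signalling genes upstream of the family (17 listed, all 17 with a peak) had 321 peaks. Of these, 5 had an adjusted p under 0.05 with DESeq2 and were higher, against 1.22% of all peaks, and none (0) was lower. A pair lay at -6002 and -5504 bp from the start of Ifnar2, a chain of the type I interferon receptor, with log2 changes of 0.88 (SE 0.173) and 0.81 (SE 0.171). The others were assigned to Irf1, a factor that binds ISREs (0.98, SE 0.258), to Socs1, a feedback inhibitor of JAK kinases (0.44, SE 0.121), and to Jak1, a receptor kinase, where the peak at -33283 bp was called (1.14, SE 0.318, adjusted p = 0.0298). At Jak1 the tamoxifen libraries held 57.5, 112 and 54.9 tags and the oil libraries 26.5, 29.3 and 44.3. Of the 6 fits that left out 1 library each, the adjusted p was 0.05 or more in 3 for Jak1 (up to 0.958, without tamoxifen 3), in 5 for Irf1 and in 5 for Socs1. The nearer Ifnar2 peak failed in 1 (0.114, without tamoxifen 3) and the other Ifnar2 peak and the Irgc1 peak in none (0). The inflammasome and pyroptosis genes (10 listed) had 71 peaks at 7 genes, with none (0) at an adjusted p under 0.05. At an unadjusted p under 0.05, 6 were higher, against 6.18% of all peaks, and 2 were lower, against 2.84%. The start peak of Casp4, a caspase that senses lipopolysaccharide and acts with GBPs, had a DESeq2 adjusted p of 0.0618. It held 31.4, 10.2 and 10.3 tags after oil and 40.1, 40.7 and 46.6 after tamoxifen. Its adjusted p was 0.05 or more in 5 of the 6 fits that left out 1 library (up to 0.564). At the start peaks of Nlrp3, Gsdme, Aim2 and Gsdmd the log2 changes were 0.80 (SE 0.411), 0.09 (SE 0.120), -0.09 (SE 0.376) and -0.19 (SE 0.110).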

How the data were processed

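The authors aligned ATAC-seq reads with Bowtie2 (mm10) at default settings. HOMER was then used to find peaks in each group, to join the 2 lists and to count tags in each joined peak. The deposited values are estimated counts: raw tags in steps of 0.5, with at most 3 tags per position and without normalisation, per the file headers. The limit of 3 holds down the highest peaks, and a site called in neither group is absent from the table. Other columns of the table used here were the annotation and the peak lists.

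Samples were grouped by their titles (3 oil, 3 tamoxifen). Tags were rounded and tested with DESeq2 1.42.0 in R 4.3.3 (Wald test, all 6 libraries, Benjamini-Hochberg adjustment over all 175929 peaks, or over 19781 genes for tags summed per nearest gene within 100000 bp). Printed tags are raw tags divided by the DESeq2 size factors. Intervals are the log2 change ± 1.96 SE and cover the spread between libraries. edgeR 4.0.16 (robust quasi-likelihood), size factors from tags in peaks or TMM, a minimum mean of 10 tags, no independent filtering, a replicate block, a distance of 20000 bp and leaving out each library were alternatives. The fits were tested on simulated data. Motifs were searched in the mm10 reference, copies of at least 95% identity over 90% of the length with BLAST+ 2.17.0, and neighbouring genes in GENCODE.

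Named peaks were, by rule, the one nearest each TSS, any with an adjusted p under 0.05, the 5 with the smallest p, the distal peak (over 3000 bp) with the most oil tags per chromosome, and called peaks of the pathway lists; the Irgm1 peak at -2454 bp, the second Gbp3 peak, the 2 weaker Igtp peaks, the Irgm1 peak at +16741 bp and the tRNA peak were added with their values known. The genes, lists and tests were chosen with earlier results of these data known.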

Additional observations from a re-analysis of the deposited data

How the results depend on the processing

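Across the fits without 1 library, called peaks ran from 0 to 1, peaks with an adjusted p under 0.05 from 0 to 3, peaks with an unadjusted p under 0.05 from 1 (without tamoxifen 3) to 8 (without tamoxifen 4), and genes with an adjusted p under 0.05 from 0 to 1. The higher end of each of these ranges came without tamoxifen 4, where 3.71% of all peaks had an adjusted p under 0.05 against 1.39% with every library. With edgeR, 1 peak had an adjusted p under 0.05 and 11 an unadjusted one. Limited to 20000 bp from a TSS, the median log2 change was -0.049. Size factors from tags in peaks, TMM factors, a minimum mean of 10 tags and fitting without independent filtering left the counts of called peaks and of adjusted p-values under 0.05 at 0, and the cause of the moves was not tested.

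The libraries numbered 1 and 4 in both groups allowed a replicate block, but the labels do not say whether these numbers pair the samples. The correlation between same-numbered libraries, after subtracting each group's mean, was -0.0443 (number 1) and 0.0506 (number 4). Among oil libraries the chi-square was near its degrees of freedom, so that such deviations are largely counting noise. A value near 0 therefore cannot decide whether the numbers pair the samples. With the block, 0 members had an unadjusted p under 0.05, and 52 of all peaks had an adjusted p under 0.05 against 2448.

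Changes near 0 turned sign in some fits. The Gbp7 start peak was -0.0072 with size factors from tags in peaks and ran from -0.0553 to 0.0724 without 1 library. The Irgm2 start peak ran from -0.0253 to 0.22 and the Gbp5 peak at -3270 bp from -0.14 to 0.0035. Summed tags ran from -0.0052 to 0.0432 for Gbp7, from -0.0557 to 0.00599 for Gbp2 and from -0.17 to 0.12 for Iigp1, and with the block Irgm2 was 0.0127 and Iigp1 -0.12. At a typical 45.0 to 57.0 tags per peak, 12 of the 65 intervals did not exclude a fold of 2.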
